A study of Mus musculus with 2 samples.

Results

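The regenerating islet-derived (Reg) genes encode small secreted proteins of the C-type lectin fold, several of which protect the intestinal surface against bacteria. They were examined in intestinal tissue of WT mice and of mice labelled ERAP1+/-. Members were taken by symbol, and all 7 mouse genes (Reg1, Reg2, Reg3a, Reg3b, Reg3d, Reg3g and Reg4) were found among the 40879 gene symbols counted. Of these 7 genes, 4 had a read in either library and 3 reached the level required for a comparison. These 3, Reg3b, Reg3g and Reg4, were all more than 2-fold higher in ERAP1+/-. Of the 8013 genes at that level, a log2 value of at least 4 in 1 or both libraries, 5.34% differed by more than 2-fold, 1.39% being higher and 3.96% lower in ERAP1+/-. Nothing is read from the 3 of 3 against this background. The family was chosen by the levels of its genes in these same libraries, where Reg3b and Reg3g had stood out, so its levels and differences are a description without a test.

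Both groups were on the C57BL/6 background and received no treatment that the labels name. Equal amounts of intestinal RNA from 3 mice, aged 8 weeks at the start, were pooled into 1 library per genotype, and reads of 75 bases were sequenced from the 3' ends of polyadenylated transcripts. WT mice carried the intact gene of endoplasmic reticulum aminopeptidase 1, which trims peptides for display on MHC class I. The ERAP1+/- label stands for mice with a tm1a (EUCOMM)Wtsi allele whose loxP-flanked exons had been removed by crossing to a Cre strain that the methods do not name. The methods call the mice germ-free and also say that they were housed under specific pathogen-free conditions. The labels and the study's methods call the sequenced tissue intestine, and the study's abstract and conclusion describe it as colon. The sex of the pooled animals is not given.

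A pool of 3 mice in 1 library leaves no spread between animals to compare with. No difference between these libraries therefore has a replicate check, and no p-value is given. The study also measured Reg3b by RT-qPCR in spleen, a different tissue, and reports no significant difference between its groups. The totals were 8114826 reads in WT and 8907515 in ERAP1+/-. Levels are read counts per 1000000 reads (CPM) scaled by trimmed mean of M values (TMM), and differences are on the log2(CPM + 1) scale. The 95% intervals are exact and cover counting error only. At these depths, a count of 0 allowed up to 0.386 CPM in WT and 0.322 CPM in ERAP1+/- (3 reads each). Erap1 itself was counted 229 times in WT and 2 times in ERAP1+/-, a log2 difference of -4.65. That is further down than the loss of 1 of 2 alleles would take it, and 3' end reads lie outside the removed exons and so do not check the deletion. ERAP1+/- is therefore used here as a label only.

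The libraries also differed in tissue content. All 10 epidermis markers were lower in ERAP1+/-, with a sum of 2824 CPM in WT and 29.5 CPM in ERAP1+/-, and so were all 10 skeletal muscle markers, with 1066 and 21.2 CPM. Of the 5 sex-linked genes, Xist rose from 1635 to 6451 reads, and the Y-linked Ddx3y went from 319 to 29 reads. Tissue content, sex and genotype cannot be told apart with 1 library each. In RNA of bulk tissue, fewer cells of a type and less RNA per cell cannot be told apart either.

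Reg3g binds the peptidoglycan of Gram-positive bacteria and kills them, and Reg3b also acts on Gram-negative bacteria. Both are made by enterocytes and Paneth cells, chiefly of the small intestine, and are induced by bacteria through MyD88 and through IL-22 and STAT3. Reg4 marks deep crypt secretory cells and enteroendocrine cells of the colon. Reg1 and Reg2 are best known from acinar cells of the pancreas.

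By the GENCODE M21 annotation of GRCm38, 6 of the 7 genes lie in 98.2 kb of chromosome 6. Reg3b (ENSMUSG00000071356.7, plus strand, 78370657 to 78373466) opens the cluster. It is followed by Reg3d (ENSMUSG00000068341.8, minus strand, 78375874 to 78378865), Reg3a (ENSMUSG00000079516.2, plus strand, 78380709 to 78383827) and Reg2 (ENSMUSG00000023140.4, plus strand, 78395623 to 78408106). Reg1 (ENSMUSG00000059654.7, plus strand, 78422711 to 78428667) comes next, and Reg3g (ENSMUSG00000030017.2, minus strand, 78466269 to 78468872) closes it. Reg4 (ENSMUSG00000027876.4, plus strand, 98222156 to 98236748) lies apart, on chromosome 3. The first transcript of each gene has 6 exons.

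The 150 bases before the RefSeq transcript start are shown for the 3 members that were higher in ERAP1+/- and for Reg3d, which lies inside the cluster and had 1 read. They are given 5' to 3' on the strand of the gene, from GRCm38.p6, at chr6:78370735-78370884 for Reg3b, chr6:78468875-78469024 for Reg3g, chr6:78378866-78379015 for Reg3d and chr3:98222006-98222155 for Reg4. Capitals mark the letters TATAAA, the core of a TATA box, and TTCNNNGAA, the letters of a STAT dimer site.
Reg3b: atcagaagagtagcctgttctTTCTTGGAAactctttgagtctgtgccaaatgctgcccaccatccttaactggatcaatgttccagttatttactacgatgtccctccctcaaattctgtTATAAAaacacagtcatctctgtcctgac
Reg3g: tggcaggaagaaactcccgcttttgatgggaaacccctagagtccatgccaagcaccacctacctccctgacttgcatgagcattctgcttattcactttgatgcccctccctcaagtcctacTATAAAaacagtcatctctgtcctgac
Reg3d: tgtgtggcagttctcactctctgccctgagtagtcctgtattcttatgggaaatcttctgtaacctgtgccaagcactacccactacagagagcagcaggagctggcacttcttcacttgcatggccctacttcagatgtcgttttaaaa
Reg4: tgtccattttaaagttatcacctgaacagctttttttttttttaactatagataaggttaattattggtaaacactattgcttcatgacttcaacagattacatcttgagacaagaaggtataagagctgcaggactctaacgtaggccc

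The Reg3b and Reg3g windows were the most alike of the 21 pairs among the 7 members, with 68.4% identical bases, followed by Reg1 and Reg2 with 59.0%. They end in the same 20 bases, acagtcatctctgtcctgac. TATAAA stood at -29 to -24 in Reg3b and at -27 to -22 in Reg3g, counted back from the RefSeq transcript start. It also stood at -30 to -25 in Reg1 and in Reg2, so 4 of 7 members held it, against 7.57% of 32851 windows of this length. TTCNNNGAA was found in Reg3b alone, at -129 to -121, and in 4.09% of all windows. Neither AGGTCA, a nuclear receptor half-site, nor TTTATG, the core of a Cdx2 site, stood in any member, against 8.58% and 6.33% of all windows. Both strands were searched, and no motif lies within another. A match is a description of letters and does not show a bound site. The annotations differ for Reg3b, whose gene starts at 78370657 and first transcript at 78370861 in GENCODE M21. By these starts the Reg3b window lies within the gene and its last bases within the transcript. The Reg1 and Reg2 windows also lie within their GENCODE genes, but before the first transcript of each.

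The transcripts of Reg3b and Reg3g can be told apart by reads of this length. Their coding sequences were 76.0% identical, below Reg1 and Reg2 at 78.8% and above Reg3a and Reg3b at 73.6%. The most distant pair was Reg3a and Reg4 at 49.8%. The longest run that the first Reg3b and Reg3g transcripts share is 35 bases of coding sequence, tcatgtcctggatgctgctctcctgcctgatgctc, which is shorter than a read. None of the 1076 stretches of 75 bases in Reg3b transcripts, the 2252 in Reg3g or the 947 in Reg4 occurred in a transcript of another gene. Reg2 shared 14 of 874 with AC154172.2 and Gm48309, and Reg1, Reg3a and Reg3d shared none.

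Reg3b and Reg3g were close to undetected in WT and present in ERAP1+/-. For Reg3b, 1 read was counted in WT and 546 in ERAP1+/-. These were levels of 0.129 CPM (95% interval 0.00326 to 0.717) and 58.7 CPM (53.9 to 63.8). The WT value therefore rests on a single read, and the intervals of the libraries do not meet. On the log2(CPM + 1) scale Reg3b went from 0.17 to 5.90, a difference of 5.72, and the ratio of levels was 456 with an interval from 81.5 to 18047.

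For Reg3g, no read was counted in WT and 232 were counted in ERAP1+/-, where its level was 24.9 CPM (21.8 to 28.4). With WT set at the limit of 3 reads, Reg3g was 64.6-fold higher in ERAP1+/-, and the exact lower 95% limit was 52.1-fold. Its log2 difference was 4.70. Among the 111 genes that were higher in ERAP1+/-, Reg3b had the largest and Reg3g the next largest log2 difference, and this is part of how the family came to be chosen.

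**Figure D1:**
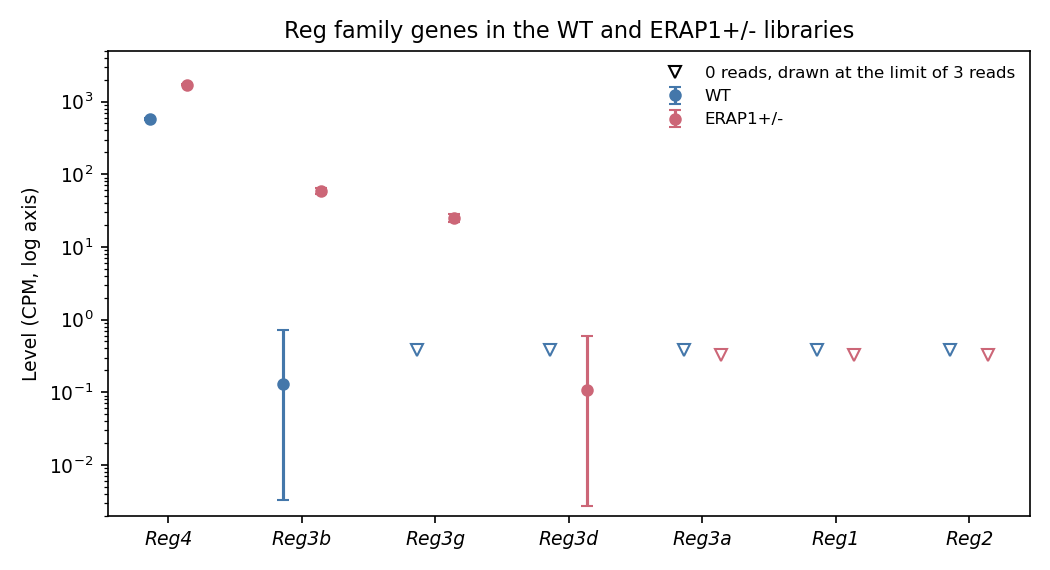
Level of each Reg gene in CPM (log axis), with WT in blue and ERAP1+/- in red and 1 pooled library per genotype. Bars are exact Poisson 95% intervals, which cover counting error only, and open triangles mark 0 reads drawn at the limit of 3 reads. Reg4 is the most abundant member in both libraries, while Reg3b and Reg3g stand at 58.7 and 24.9 CPM in ERAP1+/- and at or near 0 in WT.

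Within ERAP1+/-, Reg3b had 2.35 times the reads of Reg3g (2.01 to 2.76). Each read marks 1 transcript end, so the counts were not divided by length. Division by the length of the longest transcript left this order as it was, with 74.96 CPM per kb for Reg3b and 11.9 for Reg3g. Few other genes were at the bottom of WT and clearly counted in ERAP1+/-. Of 22599 genes with at most 1 read in WT, 3 had at least 50 reads in ERAP1+/-, namely Reg3b, Reg3g and the apolipoprotein L gene Apol10a, with 1 and 70 reads. In the other direction, 113 of 22436 genes with at most 1 read in ERAP1+/- had at least 50 in WT.

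The 2 genes sit at opposite ends of the cluster, with starts 95.6 kb apart, and the 4 genes between them were at or near 0 in both libraries. The 6 members on chromosome 6 summed to 1 read in WT and 779 in ERAP1+/-, where the sum was 83.7 CPM. Outside the cluster, Ctnna2, 391 kb before it, had 6 and 8 reads, and Lrrtm1, 1113 kb before it, had 15 and 9. Beyond the far end, Gm20594 at 1349 kb had 3 and 1 reads and Lrrtm4 at 1550 kb had 7 and 0. No neighbor passed the threshold.

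**Figure D2:**
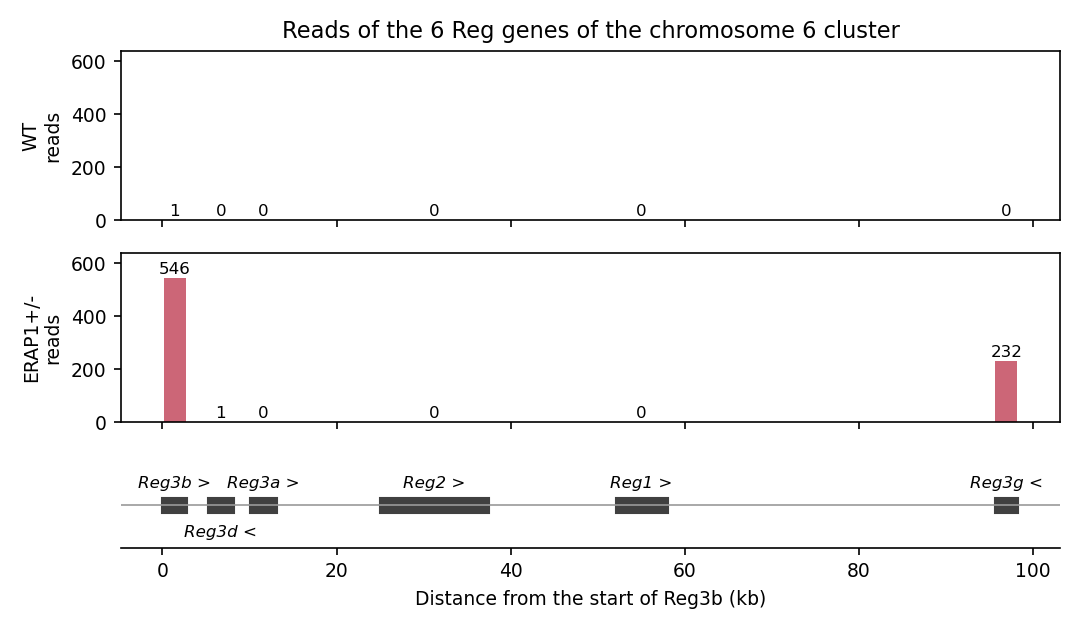
Reads per gene across the Reg cluster, in WT (upper) and ERAP1+/- (lower), against distance from the start of Reg3b in kb. Arrowheads beside the names give the strand, and the number of reads stands above each gene. Reads in ERAP1+/- lie at the ends of the cluster, 546 on Reg3b and 232 on Reg3g, with 1 read on the 4 genes between them.

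Reg4 was abundant in both libraries and rose further in ERAP1+/-. There were 4501 Reg4 reads in WT and 15827 in ERAP1+/-, or 579 CPM (562 to 596) and 1701 CPM (1675 to 1728). The ratio was 2.94 (2.84 to 3.04), and the log2 value went from 9.18 to 10.73, a difference of 1.55. By read number Reg4 ranked 197 among all genes in WT and 38 in ERAP1+/-, and it took 0.0555% and 0.178% of all reads. The intervals do not meet, but they hold no variation between animals.

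Reg4 also made up nearly all Reg reads. Of 4502 Reg reads in WT, Reg4 took 99.98% (99.88 to 99.9994). Of 16606 in ERAP1+/-, Reg4 took 95.3% (94.98 to 95.63), Reg3b 3.29% (3.02 to 3.57) and Reg3g 1.40% (1.22 to 1.59). These shares do not depend on the scaling between libraries. In ERAP1+/- Reg4 had 29.0 times the reads of Reg3b (26.6 to 31.6) and 68.2 times those of Reg3g (59.9 to 78.0). The family as a whole went from 579 to 1785 CPM, a ratio of 3.08 (2.98 to 3.18).

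Markers of the cells in which Reg4 is known moved along with it. The 10 goblet and deep crypt secretory markers were all higher in ERAP1+/-, with a median log2 difference of 0.81 and a sum of 8843 CPM in WT and 14378 CPM in ERAP1+/-. Past the 2-fold threshold were the mucin Muc2 (2.29-fold, 2.24 to 2.34), the secretory lineage factor Atoh1 (2.67-fold, 2.12 to 3.39) and Kit (2.34-fold, 1.78 to 3.11), a receptor carried by deep crypt secretory cells. The abundant Zg16, Clca1, Fcgbp and Tff3, products of goblet cells, had ratios of 1.498, 1.65, 1.24 and 1.18.

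Of the 10 enteroendocrine markers, 9 were higher, with a median of 0.96 and sums of 320 and 806 CPM. The peptide hormone genes Insl5 (5.01-fold, 4.503 to 5.58) and Gcg (3.82-fold, 3.20 to 4.58) and the granule protein genes Chga (2.53-fold, 2.21 to 2.92) and Chgb (2.03-fold, 1.83 to 2.26) passed the threshold. Secretin, Sct, was the exception, with 47 and 46 reads and a ratio of 0.818.

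Set against the goblet and enteroendocrine markers, the Reg4 difference was smaller, and against the general epithelium markers it was larger. Per 100 reads of the goblet and deep crypt list, Reg4 had 6.55 reads in WT (6.35 to 6.75) and 11.8 in ERAP1+/- (11.6 to 12.0). Per 100 enteroendocrine reads it had 181 (172 to 190) and 211 (205 to 217). Per 100 reads of the general intestinal epithelium markers it had 8.90 (8.63 to 9.17) and 30.3 (29.8 to 30.9). Scaled to the goblet list, the Reg4 ratio was 1.81 (1.75 to 1.87), below the threshold. Scaled to the general epithelium markers, it was 3.41 (3.30 to 3.52). Whether the number of secretory cells bears on the Reg4 level was not tested.

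**Figure D3:**
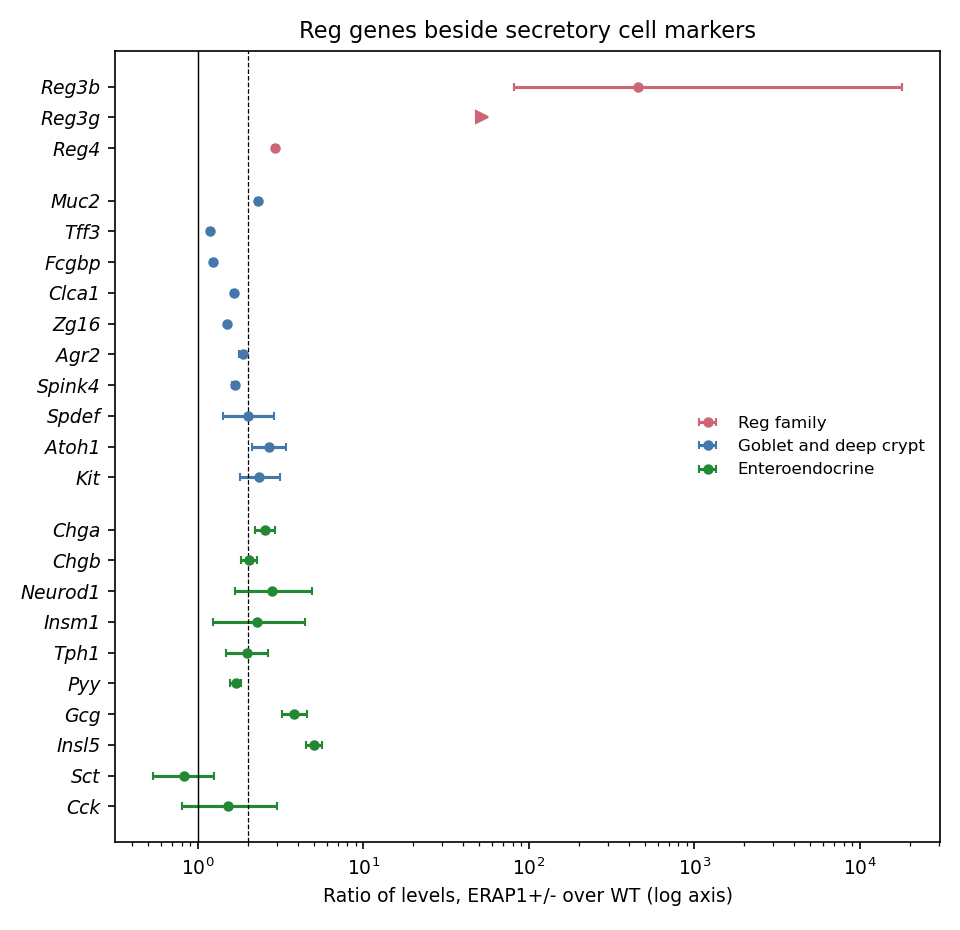
Ratio of levels, ERAP1+/- over WT (log axis), for the 3 Reg genes and for the markers of goblet and deep crypt secretory cells and of enteroendocrine cells, with exact 95% intervals for counting error. The triangle of Reg3g marks its lower limit of 52.1, and the dashed line marks 2-fold. All markers except Sct lie above 1, and Reg3b and Reg3g lie well to the right of every marker.

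Near Reg4 on chromosome 3, the receptor gene Notch2, 71.8 kb before it, had 108 and 127 reads and a ratio of 0.982. Adam30 had no reads, and Phgdh had 10 and 14.

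The other 4 members gave almost no reads. Reg1, Reg2 and Reg3a were at 0 in both libraries, and Reg3d had 0 and 1 reads, at or under the limit that a count of 0 allows. No difference was detectable at this depth for these genes. The cell types known for them were scarce as well. Of the 17 exocrine pancreas markers, 8 were at 0 in both libraries, among them the trypsinogen Prss1, the lipase Pnlip and the acinar factor Ptf1a, and the list summed to 19.8 CPM in WT and 19.2 CPM in ERAP1+/-. Most of it was the colipase gene Clps, with 128 and 163 reads.

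Paneth cell markers summed to 14.4 and 14.8 CPM, and all 10 alpha-defensin genes (Defa) of the list had no read in either library. The near-equal sums hide members that went both ways. Of the 3 with at least 10 reads, Lyz1 had 89 and 51, Pla2g2a 14 and 60, and Itln1 9 and 22. None reached the level required for a call. The 12 small intestine markers summed to 186 and 149 CPM, most of it from the glucose transporter gene Slc5a1, with 1273 and 1201 reads. Of the others, Fabp6 (66 and 77 reads), Slc10a2 (44 and 57) and Rbp2 (52 and 34) had at least 10 reads, 5 had at most 5 reads in each library, and Sis, Apoa4 and Gata4 were at 0 in both. The 8 colon markers summed to 4088 and 2696 CPM, with a median log2 difference of -0.51. The general epithelium markers summed to 6509 and 5610 CPM, and Krt20, a keratin of mature surface cells, was 2.31-fold lower (2.20 to 2.42).

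Against all genes, Reg3b and Reg3g held places that few others did, with a WT level at the floor and a clear level in ERAP1+/-. Reg4, which was well expressed in both, ranked 32 by log2 difference among the 111 higher genes.

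**Figure D4:**
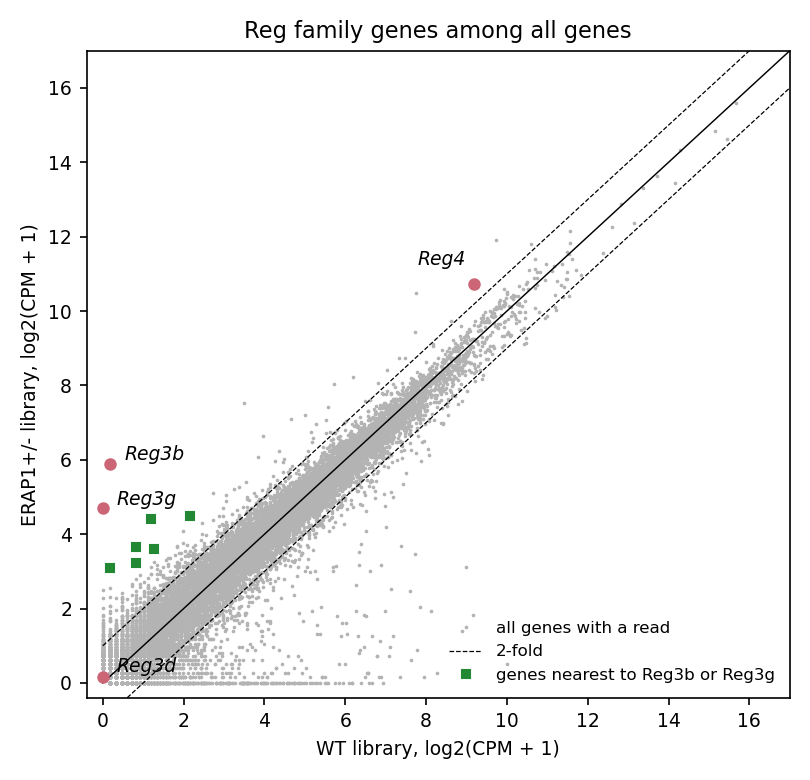
Level of every gene with a read in WT (horizontal) and ERAP1+/- (vertical), both as log2(CPM + 1), with Reg genes in red and the genes nearest to Reg3b or Reg3g in green. The solid line marks equal levels and the dashed lines mark 2-fold. Reg3b and Reg3g lie at the left edge at 5.90 and 4.70, apart from the other genes that WT hardly held, and Reg4 lies above the 2-fold line at 9.18 in WT and 10.73 in ERAP1+/-.

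No gene of the receptor, cytokine and microbial sensing lists was called higher in ERAP1+/-. In the cytokine and STAT3 list 1 gene was called lower. These are RNA levels, and the activity of the pathways was not tested. Extl3, described as a receptor of Reg proteins, had 200 and 258 reads, or 25.7 and 27.7 CPM, a ratio of 1.08 (0.892 to 1.30). Of 24 cytokine and STAT3 pathway genes, 18 had at least 10 reads. Of these, 5 were higher and 13 lower, with a median log2 difference of -0.17 (7 higher and 11 lower when scaled by total count alone). The median of all 16142 genes with at least 10 reads was 0.0020.

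The cytokines known to induce Reg3 genes were themselves not detected. Il22, Il17a, Il17f and Il6 were at 0 in both libraries. The IL-22 receptor chain Il22ra1 had 460 and 329 reads and Stat3 had 2131 and 1698. Both had lower levels in ERAP1+/- without reaching the threshold, by 1.67-fold (1.45 to 1.93) and 1.502-fold (1.41 to 1.60). Among the other abundant members, ratios were 1.25 for Il18, 0.976 for Jak1 and 0.731 for Il11ra1. Il22ra2, the soluble IL-22 binding protein, had 5 and 47 reads (7.85-fold, 3.14 to 25.3). Il1b had 9 and 37 reads (3.43-fold, 1.63 to 8.09). Both were below the level required, and they are named after their values were seen.

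Of 12 genes of microbial sensing, 11 had at least 10 reads, 8 were higher and 3 lower, none past the threshold, with a median of 0.08. Tlr9 was at 0 in both libraries. The adaptor Myd88, through which bacteria induce Reg3g, had 195 and 271 reads and a ratio of 1.16 (0.962 to 1.40). The ratios of Irak1, Irak4, Tirap and Tlr4 were 1.25, 1.06, 1.00 and 0.946.

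Other epithelial genes that IL-22 or IL-17 induce went both ways. Of 18, 16 had at least 10 reads, with 9 higher and 7 lower and a median of 0.06. The calprotectin genes S100a8 (49 and 165 reads, 2.81-fold, 2.03 to 3.95) and S100a9 (52 and 171 reads, 2.75-fold, 2.003 to 3.82) passed the threshold. They are also neutrophil genes. Of the 8 neutrophil markers, 4 had at least 10 reads, with 3 higher and 1 lower and a median log2 difference of 1.35 (1.21 with the gene at 0 in WT set at its limit). The third of the higher genes, Retnlg, had no WT read and 18 in ERAP1+/-. With WT set at the limit of 3 reads, Retnlg was 5.01-fold higher, and the exact lower limit of its interval was 3.67-fold. The gene that was lower, Ly6g, had 2867 and 1367 reads and was 2.51-fold lower. Since it held 369 of the 382 CPM of the list in WT, the sum was 186 CPM in ERAP1+/-. Which cells the Ly6g reads came from was not tested, so the sum is not read as neutrophil content. Elane was at 0 in both libraries, and Csf3r, Cxcr2 and Mpo had at most 5 reads. The part of neutrophils in the S100a8 and S100a9 values was not tested.

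The abundant serum amyloid gene Saa1 had 12924 and 14631 reads and a ratio of 0.946, Duox2 had a ratio of 0.899, and Pigr, the receptor that carries IgA across the epithelium, had 1.36. Saa3, Retnlb and Lcn2 stayed below the level required for a call. Saa3 had 6 and 107 reads (14.9-fold, 6.62 to 41.5), Retnlb, a resistin-like antimicrobial protein of goblet cells, 36 and 118 (2.74-fold, 1.87 to 4.10), and the siderophore-binding Lcn2 39 and 13 (3.59-fold lower, 1.88 to 7.33).

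Among 14 other antimicrobial genes of the epithelium, 11 had at least 10 reads, with 6 higher and 5 lower and a median of 0.58. Only Ang4, an antimicrobial ribonuclease of Paneth and goblet cells, passed the threshold, with 114 and 911 reads and a 6.68-fold difference (5.49 to 8.18). Lypd8, which keeps flagellated bacteria off the colon epithelium, was the most abundant of the list and had 70445 and 48750 reads, a level 1.73-fold lower. Dmbt1, a bacteria-binding glycoprotein, had a level 1.67-fold lower, and Zg16, a lectin that binds Gram-positive bacteria, had a level 1.498-fold higher. Sprr2a1 was at 0 in both libraries.

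The genes whose levels lay closest to those of Reg3b and Reg3g were few. Likeness was the Euclidean distance between log2(CPM + 1) values over the 2 libraries, which share depth with every gene. Reg3b and Reg3g were each other's nearest gene, at 1.22. The next for both were Iglc2, which encodes part of antibody lambda light chains (10 and 190 reads), at 1.80 and 1.22, and Saa3, at 2.35 and 1.34. Reg3b was then closest to Mzb1, a chaperone of plasma cells (27 and 201 reads), at 2.43 and to Ighg2b (11 and 103) at 2.55. Antibody genes have close copies, so the assignment of their reads is uncertain. Reg3g was then closest to Apol10a at 1.61 and to B3galt2, a galactosyltransferase gene (6 and 78 reads), at 1.68. Among the genes nearest to Reg4 were Adh1, an alcohol dehydrogenase (7514 and 14393 reads), at 0.75 and the ribosomal protein genes Rpl31 at 0.78 and Rps13 at 0.82. Their log2 differences were 0.68, 0.45 and 0.50, each smaller than that of Reg4.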

How the data were processed

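RNA of intestinal tissue, described as colon in the study's abstract and conclusion, was pooled from 3 mice per genotype. It was prepared with the QuantSeq 3' mRNA-Seq FWD kit and sequenced as single-end reads of 75 bases. For each library, the authors deposited a table of raw, unnormalized counts over 40879 gene symbols. The labels' processing notes name Bowtie2, RSEM and GRCm38, and the methods name STAR with HTSeq-count as well as Bowtie2 with RSEM. Which of them made the deposited counts is not clear, and RSEM would share ambiguous reads between genes where HTSeq-count leaves them out. Mitochondrial and ribosomal RNA took 18.0% of reads in WT and 16.7% in ERAP1+/-.

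Library sizes were adjusted by TMM (edgeR 4.0.16, R 4.3.3), with factors of 0.958 in WT and 1.04 in ERAP1+/-, and levels were expressed as CPM and log2(CPM + 1). Genes were called when they differed more than 2-fold on this log scale and their log2 level was at least 4 in 1 or both libraries. Intervals at 95% were exact Poisson for counts and Clopper-Pearson for shares and ratios (scipy 1.17.1). Zero counts were bounded at 3 reads. No test across genes could be fitted without replicates. The rule was tested on simulated Poisson counts. These held no variation between animals or pools, so they cannot check the rule against such variation. Alternatives were DESeq2 1.42.0 size factors, total-count scaling, a pseudocount of 0.1, other filters, a 4-fold threshold, a library size without mitochondrial and ribosomal RNA, and thinning to equal depth.

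Members, gene lists and alternatives were chosen with earlier results of these data known. Genes named are all members, list members past the threshold, up to 4 further list members of highest level, markers at 0, the 5 genes nearest to Reg3b, Reg3g and Reg4, neighbors on the chromosome, and Erap1. A few genes that this rule takes are not reported here. List members needed at least 10 reads over both libraries. Positions and transcripts were matched by symbol to GENCODE M21 (29035 symbols matched), and windows before transcript starts come from RefSeq on GRCm38.p6, where all 7 members matched. Protein sequences were not used here.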

Additional observations from a re-analysis of the deposited data

How the results depend on the processing

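Reg3b, Reg3g and Reg4 were higher in ERAP1+/- under every alternative run, and 3 Reg genes were called in each except 2. These were the 4-fold threshold and, chosen after seeing the data, scaling to the goblet and deep crypt markers, each of which left 2 because Reg4 fell out. The log2 differences with a pseudocount of 0.1 were 8.01 for Reg3b, 7.97 for Reg3g and 1.05 for Reg3d. The Reg3g difference was 4.96 without mitochondrial and ribosomal RNA. The Reg4 difference was 1.68 under total-count scaling and, in scalings chosen after seeing the data, 1.77 against the intestinal epithelium markers and 0.85 against the goblet and deep crypt markers. The other 42 values of members stayed within an interval drawn from the outer Poisson bounds of both counts. That interval is wider than the exact one given with the ratios. Reg1, Reg2 and Reg3a, at 0 in both libraries, could not move. Per kb of transcript, the order of members was the same.

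Over the whole table, 428 genes were called. A filter of 10 reads gave 1390 genes, no filter gave 1434 and the 4-fold threshold gave 160, as fewer or more genes could pass. Total-count scaling, which shifted the median of all genes past the level by 0.122 on the log2 scale, gave 166 higher and 248 lower genes in place of 111 and 317. It moved the list medians to 0.71 for other antimicrobial genes, -0.19 for intestinal epithelium, -0.38 for colon and 0.93 for goblet and deep crypt cells, and it left the 4 small intestine markers with 2 higher and 2 lower in place of 1 and 3. The neutrophil median was 0.30 over all its members, in place of 1.35 over the 4 with at least 10 reads. With a pseudocount of 0.1, the epidermis median was -7.86 and the skeletal muscle median -5.94. The other 79 list medians stayed between the median lower and the median upper counting limit of the genes in their list. That range is not a counting interval of the list median itself. No paired analysis was possible because WT and ERAP1+/- have 1 library apiece, and for the same reason no replicate could be left out. Depth limits Reg1, Reg2, Reg3a and Reg3d, and the WT values of Reg3b and Reg3g, which rest on 1 and 0 reads.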
